A study of Mus musculus with 12 samples.

Results

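The response of BV-2 microglia to lipopolysaccharide (LPS) was read in cells that also received luteolin, by setting 3 arrays of cells given LPS and luteolin against 3 arrays of cells given luteolin alone. These 6 arrays were taken by their agent labels from the 12 arrays of the series. The other 6, which were 3 control and 3 LPS arrays, were used to find the genes that LPS changed without luteolin. The question was which of those LPS-responsive genes still rose or fell when luteolin was present.

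BV-2 is an immortalised mouse microglial line, so all cultures came from 1 established line and stood for no primary cell. Luteolin, a plant flavonoid, was given at 50 µM and LPS, the cell wall component of Gram-negative bacteria, at 50 ng/ml. Control cultures were left untreated, and all groups were read after 24 h. Each group had replicates 1, 2 and 3, which the study describes as independent stimulation experiments. Luteolin was dissolved in DMSO according to the methods, while the control was described as non-stimulated. The labels name BV-2 cells throughout except in the RNA extraction text, which names PUER cells. In these arrays 11 of 15 microglia and macrophage markers, among them Csf1r and Itgam, had a signal of at least 50 in every library, and 9 of 12 neuron markers stayed under 50 in all. Other lists were less clear. At least 50 in every library was reached by 4 of 10 astrocyte markers, Aldoc among them, and 4 of 9 oligodendrocyte markers, Cnp among them. The same held for 2 of 11 fibroblast and 3 of 12 lymphocyte and neutrophil markers. PUER is also a myeloid line, so the microglia and macrophage markers do not separate it from BV-2.

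LPS is bound by Cd14 and recognised by Toll-like receptor 4. The receptor signals through MyD88 to NF-κB, which drives cytokines, chemokines and its own inhibitors, and through TRIF to the factor IRF3, which drives type I interferon. Secreted interferon then acts back on the cells through its receptor, so that the antiviral genes form a second wave that lasts for many hours. NF-κB binds DNA at κB sites and the interferon-activated factors at interferon-stimulated response elements (ISREs).

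Examples of these elements are shown for genes whose responses are described below. They were picked to show both kinds, and most promoter windows of the responding genes hold neither. The stretches come from RefSeq promoters of the build GRCm38.p6, run 5′ to 3′ on the strand of the gene, and end before the transcription start. Capitals mark 1 match, on either strand, to the κB letters, which are GGGA and TCC with any 3 bases between them, or to the ISRE letters, which are GAAA and GAAA with any 2 bases between them. Matches to the same letters may overlap on the opposite strand. The first set holds κB matches in genes that rose with LPS in both states, for the cytokine Il6, the chemokine Cxcl2, the NF-κB inhibitor Nfkbia and the chemokine Cxcl10.
Il6, chr5:30013045-30013104, plus strand: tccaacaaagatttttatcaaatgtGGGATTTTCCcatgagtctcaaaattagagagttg
Cxcl2, chr5:90903777-90903836, plus strand: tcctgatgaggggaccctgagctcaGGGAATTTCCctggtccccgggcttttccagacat
Nfkbia, chr12:55492648-55492701, minus strand: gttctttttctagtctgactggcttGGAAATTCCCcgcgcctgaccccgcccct
Cxcl10, chr5:92349014-92349073, minus strand: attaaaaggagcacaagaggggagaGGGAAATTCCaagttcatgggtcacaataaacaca
The second set holds ISRE matches, for the antiviral genes Rsad2 and Ifit1, the guanylate-binding protein Gbp2 and again Cxcl10, which carries both kinds of letters.
Rsad2, chr12:26456538-26456597, minus strand: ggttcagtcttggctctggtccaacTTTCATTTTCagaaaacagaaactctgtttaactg
Ifit1, chr19:34640760-34640819, plus strand: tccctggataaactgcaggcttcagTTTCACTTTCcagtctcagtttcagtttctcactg
Gbp2, chr3:142620579-142620638, plus strand: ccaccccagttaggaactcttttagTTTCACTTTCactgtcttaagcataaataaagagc
Cxcl10, chr5:92349068-92349127, minus strand: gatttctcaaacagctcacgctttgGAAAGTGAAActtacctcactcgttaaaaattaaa

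Values are the deposited RMA signals, linear fluorescence units given in the order of replicates 1, 2 and 3, and responses are log2 differences between groups. A gene was called when its Benjamini-Hochberg adjusted p in limma was below 0.05, in a fit of all 12 arrays with the replicate number as a block. In all, 12071 genes were tested, those whose group mean reached a signal of 50 in any group. The arrays had like medians, between 52.2 and 56.4 over all probe sets. The array of replicate 2 with LPS and luteolin stood apart in its interferon-induced genes, which lay near the level of cells without LPS. Its NF-κB subunit and feedback genes were raised, while the NF-κB cytokine list had its lowest median with luteolin there (0.475). It was not the only deviating array. The weights that limma estimated per array were 0.189 for LPS replicate 1, 0.279 for this array and 0.368 for control replicate 1. Counts of raised and lowered genes, and of LPS-responsive genes called with luteolin, are therefore given with and without replicate 2 of LPS and luteolin. So are counts of the interferon, GTPase and acute phase lists, and genes described below whose call changed. Other counts, also of most lists, are from all 12 arrays, and some of them changed without that array. RNA was measured in bulk, so that fewer responding cells and less RNA per responding cell cannot be told apart.

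With luteolin present, LPS raised 210 of the 12071 genes (1.74%) and lowered 344 (2.85%). Without luteolin it raised 519 (4.30%) and lowered 819 (6.78%). Calls overlapped in direction, with 159 genes raised in both states, which were 75.7% of those raised with luteolin and 30.6% of those raised without it. The 221 genes lowered in both states made up 64.2% and 27.0%. No gene was called in opposite directions. Without replicate 2 of LPS and luteolin, the counts with luteolin were 294 raised and 265 lowered. Without replicate 3 of that group they were 98 and 173, and without replicate 3 of luteolin 77 and 104. Array by array, all 3 LPS and luteolin arrays lay above all 3 luteolin arrays for 888 genes (7.36%) and below them for 1229 (10.2%).

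LPS-responsive genes were those with an adjusted p below 0.05 and at least a doubling or halving, a log2 difference of 1 or more in size, between LPS and control. This choice used none of the 6 arrays with luteolin, although both comparisons share the estimate of the spread and the stimulation experiments. There were 259 LPS-raised and 134 LPS-lowered genes. At the edge of the choice, Ifngr2 lay just inside with a log2 difference of 1.01 and Ell2 just outside with 0.99, while Acap1 (−1.002) was the last lowered gene inside and Hhex (−0.998) the first outside.

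Of the 259 LPS-raised genes, 105 (40.5%) also rose with luteolin, against a background of 1.74% of all genes, and none fell. Among the 154 that were not called, 145 had a difference above 0 and 76 had an unadjusted p below 0.05. The median log2 response was 1.86 without luteolin and 1.06 with it. With luteolin the median was 1.31, 0.37 and 1.46 in replicates 1, 2 and 3, and without it 2.05, 1.59 and 1.87, so that every replicate was lower with luteolin and replicate 2 the most. Leaving out replicate 2 of LPS and luteolin, 150 of the same 259 genes rose (57.9%) and the median was 1.36.

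Of the 134 LPS-lowered genes, 82 (61.2%) also fell with luteolin, against a background of 2.85%, and 51 of the 52 others had a difference below 0. Their median was −1.21 without luteolin and −1.06 with it. The replicate medians were −0.87, −1.15 and −1.12 with luteolin and −1.53, −1.05 and −1.27 without it, so that the fall was larger with luteolin in replicate 2 and smaller in the others. Without replicate 2 of LPS and luteolin, 69 of the 134 fell (51.5%) and the median was −0.95.

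**Figure D1:**
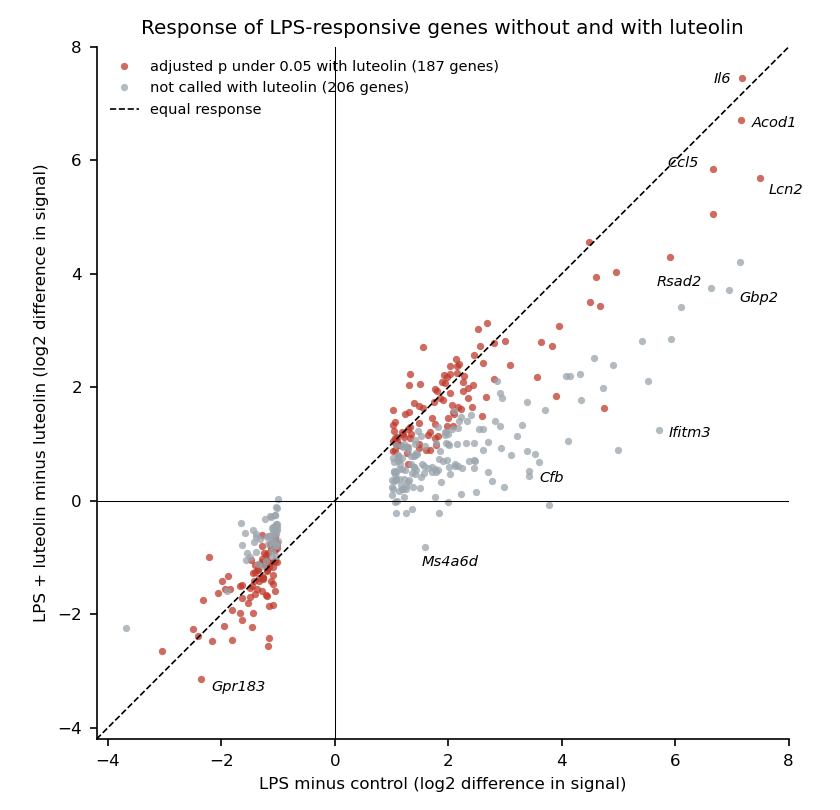
Log2 response to LPS of the 259 LPS-raised and 134 LPS-lowered genes without luteolin (horizontal) and with luteolin (vertical), 1 point per gene. Red points are the genes called with luteolin (105 raised and 82 lowered), grey points the others, and the broken line marks equal responses. Il6 and Acod1 lie near that line, while Rsad2, Gbp2, Ifitm3 and Cfb lie below it.

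The choice was also made the other way round, from the arrays with luteolin. Of 108 genes raised at least 2-fold by LPS with luteolin, 99 (91.7%) were also called without it, with medians of 1.70 with and 1.90 without luteolin. Of 139 genes lowered at least 2-fold with luteolin, 97 (69.8%) were called without it, and here the median was larger in size with luteolin, −1.31 against −0.99. In this choice the values with luteolin chose the genes and are a description.

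The share of the log2 response kept with luteolin, the difference with luteolin divided by that without, had a median of 60.0% over the LPS-raised and 80.5% over the LPS-lowered genes. Taken from the replicate medians, the share was 64.0%, 23.3% and 77.8% in replicates 1, 2 and 3 for the raised genes and 57.2%, 110% and 88.1% for the lowered ones. The share of single genes was over 100% for 35 LPS-raised and 38 LPS-lowered genes. It lay below 25% for 36 of the 259 raised genes, 9 of which had a difference below 0. The LPS-raised and LPS-lowered genes were chosen for a large response without luteolin, the divisor, so the choice itself lowers the share. Over the genes chosen with luteolin, where the choice raises the share, the median was 99.0% for raised and 133% for lowered ones.

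**Figure D2:**
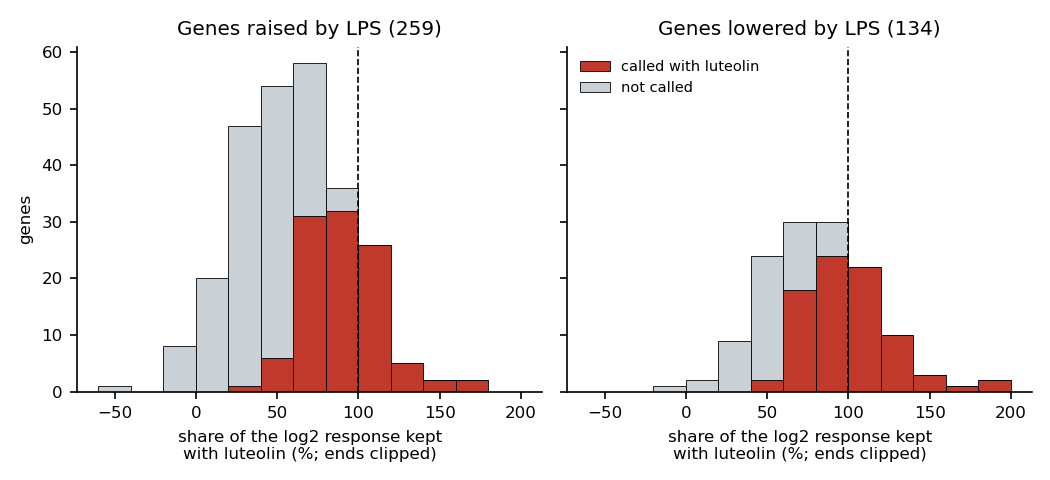
Number of LPS-raised (left) and LPS-lowered genes (right) by the share of their log2 response kept with luteolin, in percent, with values outside the axis drawn in the end bins. Red bars are genes called with luteolin, grey bars the others, and the broken line marks an equal response. Medians were 60.0% and 80.5%, in genes chosen for a large response without luteolin, which lowers the share.

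Most NF-κB subunit and feedback genes that LPS raised also rose with luteolin. Of 21 tested subunit and feedback genes, 15 rose with luteolin and none fell, while 16 rose without it. The median log2 difference of the list was 1.57 with and 1.39 without luteolin, beside 0.001 over all genes tested with luteolin. It was 1.77, 1.31 and 1.97 in the replicates, so that replicate 2 lay close to the others here. The member called only without luteolin was Cflar, an inhibitor of caspase-8, at 0.79 (adjusted p = 0.0868). It was called without replicate 2 of LPS and luteolin, at 1.10 (adjusted p = 0.00923, range over settings 0.00549 to 0.542).

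The inhibitors were among the clearest. Nfkbiz, a nuclear IκB protein, had signals of 369, 303 and 269 with luteolin and 2967, 2370 and 2916 with LPS and luteolin. The groups were far apart in every replicate. The log2 difference was 3.14 ± 0.27 (SE, n = 3 per group, limma adjusted p = 0.00041), against 2.68 without luteolin. Nfkbia, the classical inhibitor that holds NF-κB in the cytoplasm, rose by 2.56 with and 2.45 without luteolin, and Nfkbie, a related inhibitor, by 3.03 and 2.53. Tnfaip3 encodes A20, an enzyme that removes ubiquitin and stops the signal, and gave 107, 285 and 150 with luteolin against 1166, 765 and 1794 with LPS and luteolin. Its difference was 2.82 ± 0.40 (SE, adjusted p = 0.00473), against 3.01 without luteolin.

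Subunits and signalling proteins rose as well. Relb, the subunit of the slower non-canonical branch, had 106, 78.0 and 66.7 with luteolin and 452, 216 and 415 with LPS in addition. It rose by 2.07 ± 0.24 (SE, adjusted p = 0.00167), and without luteolin by 1.51. Nfkb2 rose by 1.73 with and 1.39 without luteolin. Traf1, an adaptor of TNF receptors that NF-κB induces, rose by 3.44 ± 0.36 (SE, adjusted p = 0.000981), less than the 4.68 without luteolin, although the interaction did not pass the correction (adjusted p = 0.75). All 3 luteolin arrays lay under 50 for Traf1, as did all 3 control arrays, and with signals under 50 set to 50 the differences were 2.50 with and 3.70 without luteolin. Zc3h12a encodes Regnase-1, a nuclease that degrades cytokine mRNAs, and was one of the genes with the largest share kept. It gave 92.4, 95.7 and 68.8 with luteolin and 464, 330 and 411 with LPS and luteolin, a difference of 2.23 against 1.33.

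**Figure D3:**
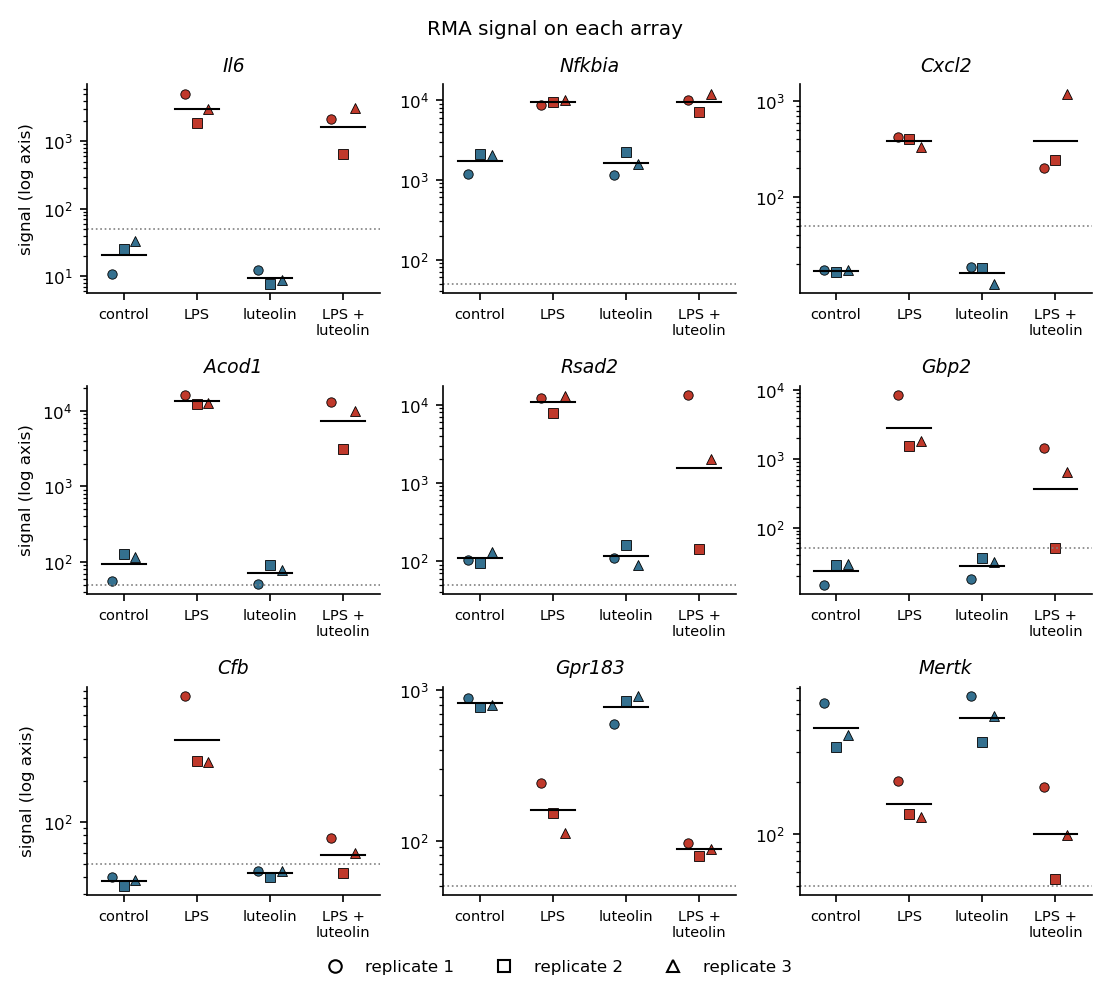
RMA signal on each of the 12 arrays for 9 genes, on log axes, with symbols for replicates 1 to 3, black bars for geometric group means and a dotted line at 50. Red marks cultures with LPS. Il6, Nfkbia, Cxcl2 and Acod1 were raised in all 3 LPS and luteolin arrays, Rsad2 and Gbp2 were at 142 and 50.7 in replicate 2, and Gpr183 and Mertk were lowered.

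All 6 NF-κB cytokine genes that were LPS-raised also rose with luteolin, and with Csf3, the granulocyte colony-stimulating factor, 7 of 14 tested rose and none fell. The list median was 0.997 with and 0.778 without luteolin. Gene by gene, however, the response was lower with luteolin for 10 of the 14, and the median of this difference was −0.38. In replicates 1, 2 and 3 the list median was 1.07, 0.475 and 1.71 with luteolin and 1.33, 0.534 and 0.933 without it. Il6, the pleiotropic cytokine interleukin 6, had signals of 12.2, 7.78 and 8.81 with luteolin and 2135, 657 and 3163 with LPS and luteolin. The luteolin arrays were all under 50, where the order of signals means little. The measured difference was 7.45 ± 0.53 (SE, adjusted p = 0.000274) and, with signals under 50 set to 50, 5.04. Without luteolin Il6 went from 10.9, 25.4 and 32.9 to 5018, 1836 and 3041, a difference of 7.19. The control arrays were under 50 too, and with signals under 50 set to 50 the value without luteolin was 5.93, so that which state had the larger response depended on this setting.

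Tnf, the gene of tumour necrosis factor, had 161, 153 and 179 with luteolin and 1783, 730 and 1005 with LPS and luteolin. In both states it rose in all replicates, by 2.74 ± 0.30 with luteolin (SE, adjusted p = 0.00122) and 2.57 without. Il1b, the precursor of interleukin 1 beta, went from 82.7, 79.5 and 69.3 to 736, 670 and 3324. This was a difference of 3.94 ± 0.41 (SE, adjusted p = 0.000934), against 4.61 without luteolin. Il1a, the gene of interleukin 1 alpha, rose by 1.84 with luteolin and 3.90 without. Its luteolin arrays were all under 50, and with signals under 50 set to 50 the difference was 1.04 with and 3.00 without luteolin. Il1rn, which encodes the interleukin 1 receptor antagonist, rose to 285, 360 and 1037 with LPS and luteolin but to 3111, 3859 and 5579 with LPS alone, from 112, 200.5 and 160 with luteolin and 88.7, 203 and 190 in the control. Its response was 1.63 ± 0.30 with luteolin (SE, adjusted p = 0.017) and 4.75 without.

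The chemokines were divided. Of 15 tested, 9 were LPS-raised and 5 of these rose with luteolin, with list medians of 1.94 without and 1.02 with luteolin. Ccl5, a T cell attractant, had 87.0, 101 and 83.4 with luteolin and 15330, 1821 and 5032 with LPS and luteolin. The difference was 5.85 ± 0.50 (SE, adjusted p = 0.00041), with replicate 2 the lowest, against 6.665 without luteolin. Cxcl2, which attracts neutrophils, went from 18.8, 18.3 and 12.6 to 200, 245 and 1192, a difference of 4.57 ± 0.53 (SE, adjusted p = 0.00182) that matched the 4.49 without luteolin. With signals under 50 set to 50 it was 2.95 in both states.

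Cxcl10, the interferon-inducible ligand of Cxcr3 that carries both kinds of promoter letters, had 27.7, 25.5 and 27.9 with luteolin and 482, 190 and 1613 with LPS and luteolin. It rose by 4.29 ± 0.67 (SE, adjusted p = 0.00751), against 5.90 without luteolin. All luteolin arrays were under 50, and with signals under 50 set to 50 the differences were 3.40 and 5.37. Ccl2, a monocyte attractant, rose by 3.503 ± 0.67 (SE, adjusted p = 0.0183), and Ccl3, a macrophage inflammatory protein, by 1.22. Ccl12, a further monocyte attractant, was LPS-raised in control medium, from 12.1, 31.8 and 35.6 to 1471, 157 and 153. With luteolin it had 24.6, 39.7 and 32.6 and, with LPS in addition, 30.2, 16.7 and 53.2. These groups overlapped, and the difference was −0.08 (adjusted p = 0.978). Ccl4, Ccl7 and Ccl9 were not called with luteolin either, at 1.16, 1.75 and 1.02.

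Of 13 tested genes of nitric oxide, itaconate and arginine metabolism, 4 rose with luteolin and none fell. Acod1 encodes the enzyme that makes itaconate, and had 51.0, 90.01 and 77.6 with luteolin and 12910, 3136 and 10020 with LPS and luteolin. It rose by 6.71 ± 0.50 (SE, adjusted p = 0.000278), against 7.16 without luteolin. Ptgs2, the inducible cyclooxygenase, rose by 4.04 with and 4.96 without luteolin. Sod2, the mitochondrial superoxide dismutase, rose by 1.89 and 2.03. Casp4, a caspase that senses intracellular LPS, went from 289, 121 and 129 to 2031, 749 and 968. Its difference of 2.79 ± 0.18 (SE, adjusted p = 0.000182) was the same as the 2.80 without luteolin within its error. Slc11a2, an iron transporter, rose by 2.24 with and 2.03 without luteolin. Of the 21 tested genes of LPS recognition and signalling, 3 rose with luteolin and 2 fell. Tlr2, the receptor for bacterial lipopeptides, rose by 2.38 with and 2.04 without luteolin, and Cd14 by 1.62 and 2.22. The level of Cd14 was nevertheless higher with luteolin. Its geometric means were 2992 with luteolin against 1266 in control, and 9189 with LPS and luteolin against 5892 with LPS alone. Map3k8, the kinase that links the receptor to the ERK pathway, had 81.6, 59.9 and 81.8 with luteolin and 216, 205 and 180 with LPS and luteolin, a rise of 1.44 against 0.62. Tlr7, a receptor for single-stranded RNA, fell by 1.15 on the log2 scale with luteolin, and −0.66 was the value without it.

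Nos2, the inducible nitric oxide synthase, was not called with luteolin. It had 41.8, 52.8 and 57.2 with luteolin and 79.0, 50.6 and 112 with LPS and luteolin, so that replicate 2 lay within the luteolin arrays. The difference was 0.61 ± 0.30 (SE, adjusted p = 0.344), while without luteolin it was 2.12, from 48.0, 46.2 and 59.7 to 335, 200.5 and 163. The interaction had an unadjusted p of 0.00565 and an adjusted p of 0.663.

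Of 23 tested scavenger and phagocytic receptors, 2 rose with luteolin and 3 fell. Clec4e, a receptor for mycobacterial glycolipid, rose from 1396, 1989 and 1481 to 8944, 4470 and 9561, by 2.18 with and 3.57 without luteolin. Ccrl2, a chemerin-binding receptor, rose by 3.08 and 3.96, and Fas, the death receptor, by 2.14 and 2.81. All 3 luteolin arrays were under 50 for Fas, and with signals under 50 set to 50 its difference was 1.48 with and 2.21 without luteolin. Myc, a growth-promoting transcription factor, rose by 1.83 with and 2.66 without luteolin, although its arrays overlapped between the groups, with 158, 80.7 and 82.8 against 627, 155 and 487.

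Of 23 tested genes of the antioxidant response that NRF2 controls, 5 rose with luteolin and 8 without, with list medians of 0.37 and 0.32. None of the 3 that were LPS-raised was called with luteolin. Gclm, a subunit of the enzyme that starts glutathione synthesis, had 1075, 682 and 578 with luteolin and 2329, 2394 and 1623 with LPS and luteolin, above all luteolin arrays. It rose by 1.47 (adjusted p = 0.0176), and the value of 0.94 without luteolin was not called. Without replicate 2 of LPS and luteolin the call was lost (adjusted p = 0.0579, range over settings 0.000566 to 0.241). Gsr, which regenerates glutathione, rose by 1.19 with and differed by 0.63 without luteolin. Hmox1, the haem-degrading oxygenase, differed by 1.02 with luteolin (adjusted p = 0.0908) and by 1.97 without, and its luteolin arrays, at 2623, 3797 and 3157, lay above all control arrays, at 567, 2305 and 2005.

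The interferon-induced genes were where replicate 2 of LPS and luteolin mattered most. Of 40 tested genes of this response, 32 rose with LPS without luteolin and 1 with it, Slfn2, a Schlafen family gene, by 2.81 (adjusted p = 0.00388). The list median fell from 2.36 to 0.92. In the replicates the median with luteolin was 2.23, −0.28 and 0.88. Without luteolin it was 2.67, 1.91 and 2.26. Leaving out replicate 2 of LPS and luteolin, 22 of the 40 rose with luteolin and the median was 1.60, still below the value without luteolin.

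Rsad2, which encodes the antiviral enzyme viperin, had 110, 161 and 88.1 with luteolin and 13230, 142 and 2001 with LPS and luteolin. Replicate 1 reached the level of LPS alone, which was 12190, 7843 and 12960, replicate 3 was lower and replicate 2 lay within the luteolin arrays. The difference was 3.74 ± 1.09 (SE, adjusted p = 0.0982) and, without replicate 2, 5.44 (adjusted p = 0.00251). Over the 25 alternative settings this adjusted p ranged from 0.00251 to 0.583. Ifit1, which binds foreign RNA, gave 18.8, 24.7 and 26.0 with luteolin and 2030, 25.9 and 279 with LPS in addition. Its response was 3.42 with luteolin (adjusted p = 0.111) and 6.10 without. All luteolin and control arrays were under 50, and with signals under 50 set to 50 the values were 2.61 and 4.85. Ifit1 was called without replicate 2 of LPS and luteolin, at 4.86 (adjusted p = 0.0109, range over settings 0.0109 to 0.547).

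Irf7, the factor that amplifies interferon production, had 107, 104 and 89.0 with luteolin and 2913, 82.9 and 759 with LPS and luteolin. It differed by 2.51 ± 0.85 (SE, adjusted p = 0.153), and without replicate 2 by 3.91 (adjusted p = 0.0012, range over settings 0.0012 to 0.641). The response without luteolin was 4.57. Irf9, a factor activated by interferon, differed by 1.21 and Irf1 by 0.75, neither of them called (adjusted p = 0.112 and 0.145). Both were called without replicate 2 of LPS and luteolin, Irf9 at 1.76 (adjusted p = 0.0049) and Irf1 at 1.11 (adjusted p = 0.00996). Over the settings the adjusted p went up to 0.635 and 0.679. Of 20 tested genes of interferon signalling, 1 rose with luteolin, the receptor chain Ifnar2 by 0.51 (adjusted p = 0.0295). Without luteolin 6 of the 20 rose and 2 fell. With luteolin 7 of the 20 rose once replicate 2 of LPS and luteolin was left out.

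The GTPases of the GBP and IRG families, which act against intracellular microbes, showed the largest median response to LPS without luteolin among the lists, 4.11, and all 7 tested rose. With luteolin the median was 1.05 and none was called. The replicate medians were 1.92, −0.38 and 1.28. Gbp2 had 17.9, 36.2 and 31.8 with luteolin and 1450, 50.7 and 642 with LPS and luteolin, against 8529, 1529 and 1826 with LPS alone. Its difference was 3.72 ± 0.997 (SE, adjusted p = 0.074), and 6.95 without luteolin. All luteolin and control arrays were under 50, and with signals under 50 set to 50 the values were 2.85 and 5.85. Gbp2 was called without replicate 2 of LPS and luteolin, at 5.10 (adjusted p = 0.00812, range over settings 0.00422 to 0.506). Without replicate 2 of LPS and luteolin 5 of the 7 rose, and the median was 1.58. Gbp6, at 1.05 with and 4.11 without luteolin, had an interaction of −3.07 with an unadjusted p of 0.00011 (adjusted p = 0.2). It too was called without that array, at 1.58 (adjusted p = 0.00299, range over settings 0.00299 to 0.634), and with signals under 50 set to 50 its responses were 0.63 and 2.85.

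**Figure D4:**
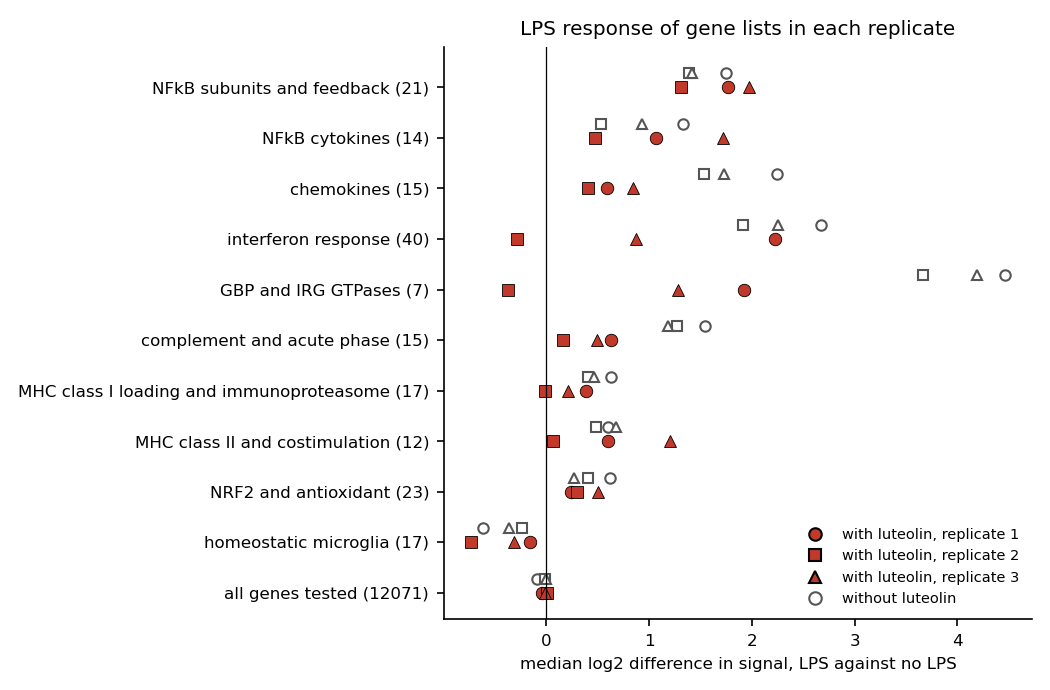
Median log2 response to LPS over the tested genes of 11 groups, with the number of genes in brackets, in each replicate. Filled symbols are with luteolin and open symbols without it. With luteolin the interferon list had medians of 2.23, −0.28 and 0.88 in replicates 1, 2 and 3, while the NF-κB subunit and feedback list had 1.77, 1.31 and 1.97.

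The promoter letters were counted over the same groups as a description. RefSeq windows from 250 bases before to 50 after the start were found for 81 of the 105 genes that rose in both states and for 118 of the 154 that were not called with luteolin. The ISRE letters were present in 6.42% of the windows of the former and 20.9% of the latter. They were present in 2.95% of the windows of tested genes and 3.44% of all 32851 promoter windows. The κB letters were present in 9.17% and 7.19%, beside 5.35% for tested genes and 4.59% of all. Of the windows of the interferon list 38.9% held the ISRE letters. Which genes were not called depended on replicate 2 of LPS and luteolin. Of the 30 LPS-raised genes of the interferon list only 1 was called with luteolin, while without that array 22 of the 40 tested rose. Likewise, 51 of the 154 genes were called once that array was left out. The letters were not counted again for that split, so how far the contrast in ISRE letters rests on that array was not tested. A match is a description of the letters in these windows and was not tested for binding.

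Acute phase and complement genes also divided. Of 15 tested, 8 rose without luteolin and 3 of these rose with it, and C1qc, a subunit of the complement initiator C1q, fell. With replicate 2 of LPS and luteolin left out, 6 of the 15 rose with luteolin and none fell. Lcn2, the iron-scavenging lipocalin 2, had 21.3, 29.6 and 21.5 with luteolin and 1203, 242 and 6527 with LPS and luteolin. It rose by 5.70 ± 0.94 (SE, adjusted p = 0.00984), against 7.50 without luteolin. With signals under 50 set to 50 the differences were 4.63 and 7.14. Saa3, the acute phase protein serum amyloid A3, rose by 5.06 with and 6.67 without luteolin, and Slpi, a protease inhibitor, by 2.39 and 3.08.

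Cfb, complement factor B of the alternative pathway, lay at the other end. It went from 39.6, 34.4 and 37.9 to 824, 280 and 275 with LPS in control medium. With luteolin it had 43.9, 39.9 and 44.3 without LPS and 76.3, 43.0 and 59.4 with it. The difference was 0.44 ± 0.28 (SE, adjusted p = 0.486) and the interaction −2.98 (unadjusted p = 3.15e-05, adjusted p = 0.0927). C1qc had 77.1, 190 and 231 with luteolin and 37.0, 50.2 and 80.6 with LPS and luteolin, a log2 difference of −1.499 (adjusted p = 0.0361) that was not called without replicate 2 (adjusted p = 0.108, range over settings 0.00493 to 0.293).

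In the class I antigen presentation list 9 of 17 tested rose without luteolin and 1 with it, Tapbp, the peptide-loading protein tapasin, by 0.84 with and 1.28 without luteolin. The list median was 0.50 without and 0.15 with luteolin. No gene of the class I or of the class II list was called with luteolin in a fit without the replicate block. In the class II and costimulation list 4 of 12 rose without luteolin and the same 4 plus Cd83 rose with it. Icam1, an adhesion molecule, had 357, 340 and 380 with luteolin and 1334, 566 and 2632 with LPS and luteolin. The rise was 1.81 ± 0.35 (SE, adjusted p = 0.0205), against 1.86 without luteolin. Cd40, the receptor for T cell help, rose by 1.81 and 2.35, and lay just inside the threshold with luteolin (adjusted p = 0.0494, range over settings 0.00511 to 0.404).

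The LPS-raised genes with the smallest share kept were Ms4a6d, Ifi207, Ms4a6b, Tmem140, Ms4a6c, Il7r, Ccl12 and Dusp14, each with a difference below 0 with luteolin. Tmem140 went from 111, 106 and 95.3 to 574, 245 and 365 without luteolin, and from 270, 158 and 163 to 286, 85.5 and 183 with it. Its luteolin arrays already lay above all control arrays, and the groups with luteolin overlapped. Ms4a6d, a membrane protein of macrophages, went from 489, 370 and 418 to 285, 116 and 416, a difference of −0.82 (adjusted p = 0.322), against 1.60 without luteolin. Here too the luteolin arrays lay above all 3 control arrays, which had 170, 358 and 296. Il7r, a subunit of the interleukin 7 receptor, differed by −0.03 with luteolin and by 1.06 without.

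At the other end, Plpp1, a lipid phosphatase, Zc3h12a, the costimulatory receptor Tnfrsf9, the kinase Pim2, Relb, A430093F15Rik, Rtn2 and Rab20 had the largest shares. Pim2 went from 156, 142 and 136 to 621, 529 and 638 with luteolin, a rise of 2.04 ± 0.18 (SE, adjusted p = 0.000426), and by 1.31 without it. Plpp1 rose by 2.71 with and 1.56 without luteolin. Its luteolin arrays, at 350, 218 and 116, were each below the control array of the same replicate, at 1128, 448 and 240.

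Among the genes that LPS lowered in the presence of luteolin, Gpr183, an oxysterol receptor that guides immune cell migration, changed most. It had 594, 848 and 914 with luteolin and 96.9, 79.5 and 87.6 with LPS and luteolin. The fall was 3.14 ± 0.25 on the log2 scale (SE, adjusted p = 0.000335), and −2.36 was the value without luteolin. Maf, a transcription factor of macrophage differentiation, went from 208, 879 and 707 to 33.9, 87.9 and 173, a difference of −2.66 ± 0.31 (SE, adjusted p = 0.00197). Cxcr4, the receptor for Cxcl12, went from 1156, 634 and 613 to 184, 187 and 78.3, a difference of −2.46. Rnase4, a secreted ribonuclease, differed by −2.41 with and −1.16 without luteolin, and Serpinb1a, an inhibitor of neutrophil proteases, by −2.56 and −1.18. For both the interaction was not called, with adjusted p = 0.39 and 0.75.

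Of 17 tested genes of the homeostatic list, 6 fell with luteolin and 7 without it, and all 5 LPS-lowered ones fell in both states. Mertk, a receptor for the uptake of dying cells, had 630, 343 and 483 with luteolin and 187, 54.6 and 98.7 with LPS and luteolin. It fell by 2.23 ± 0.20 on the log2 scale (SE, adjusted p = 0.000433), and −1.47 was the value without luteolin. Gpr34, a lysophospholipid receptor, differed by −2.39 with luteolin, but its LPS and luteolin arrays were all under 50 and with signals under 50 set to 50 the differences were −0.49 with and −0.61 without luteolin. Mef2c, a transcription factor of microglia, differed by −1.09 with and −1.02 without luteolin, and Trem2, a lipid-sensing receptor, by −0.91 and −0.86. Both calls with luteolin were lost without the replicate block (limma adjusted p = 0.0666 and 0.0902). The other, dimmer probe set of Trem2 gave 0.13 with luteolin. P2ry12 and Tmem119, other genes of the list, were not called in either state.

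Selenop, a selenium carrier protein, went from 8509, 5822 and 7832 to 1992, 1462 and 1710, a difference of −2.10 with luteolin and −1.64 without. Cd5l, a scavenger protein of macrophages, went from 186, 184 and 245 to 67.2, 52.7 and 68.5, a difference of −1.70 against −0.92. With LPS the geometric means of Selenop were 1689 without and 1708 with luteolin, and those of Cd5l 62.2 and 62.4. The larger differences came with higher levels without LPS, 7294 with luteolin against 5257 in control for Selenop and 203 against 117 for Cd5l. The luteolin arrays of Cd5l lay above all control arrays, while those of Selenop overlapped them. Apoe, the lipid carrier apolipoprotein E, had 6995, 8901 and 8924 with luteolin and 3823, 4606 and 3426 with LPS and luteolin. Its difference was −1.07 with luteolin and −1.06 without. Ltc4s, which makes leukotriene C4, differed by −1.27 and −1.44. Atp6v0d2, a subunit of the proton pump, differed by −2.23 with luteolin and −0.75 without, where it was not called (adjusted p = 0.164). Cd93, a receptor of the complement C1q family, differed by −2.26 (adjusted p = 0.0438), and without replicate 2 of LPS and luteolin it was not called (adjusted p = 0.131, range over settings 0.00658 to 0.245).

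None of 29 DNA replication, 27 mitosis and 29 oxidative phosphorylation genes tested was called with luteolin. The background was 1.74% raised and 2.85% lowered, so few calls would be found in lists of this size. The list medians were 0.05, −0.31 and −0.06, beside 0.001 over all genes. Of the 27 mitosis genes, 25 had a difference below 0 with luteolin and 23 without it, beside 6008 of all 12071 genes with luteolin. The mitosis median without luteolin was −0.51. Of 24 glycolysis and hypoxia genes tested, 3 rose with luteolin and 1 fell. Ero1a, an oxidase of the endoplasmic reticulum, rose by 0.93 (adjusted p = 0.00835), and Ndrg1, a hypoxia-induced gene, fell by 1.31 on the log2 scale (adjusted p = 0.0288). For both the groups overlapped, and the call was lost without the replicate block (limma adjusted p = 0.388 and 0.2995).

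Il6ra, the interleukin 6 receptor chain, fell in both states. It went from 288, 416 and 423 to 139, 280 and 162, a difference of −0.999 ± 0.15 (SE, adjusted p = 0.00705), against −2.21 without luteolin. The LPS arrays without luteolin had 61.4, 101 and 80.0, all below the LPS and luteolin arrays. The interaction was 1.21 (unadjusted p = 0.000292, adjusted p = 0.26). The LPS-lowered genes with the smallest share kept were Rnpc3, Smad5, Tardbp, Sfpq, Snhg3, Csk, Egr2 and Nab2. Tardbp and Sfpq encode RNA-binding proteins, Rnpc3 a protein of the minor spliceosome, Csk an inhibitory kinase of the Src family and Nab2 a corepressor of Egr factors. Sfpq differed by −0.38 with and −1.65 without luteolin.

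Some genes were called with luteolin and had an unadjusted p above 0.05 without it, 22 raised and 51 lowered. Slc16a3, a lactate exporter, went from 150, 462 and 344 to 321, 735 and 641 with luteolin, a rise of 0.89 ± 0.12 (SE, adjusted p = 0.00335), and differed by 0.004 without it. Each replicate rose with luteolin. Ptprj, a receptor tyrosine phosphatase, rose from 175, 188 and 176 to 373, 327 and 385, and differed by 0.04 without luteolin. Cd83, a marker of activated antigen-presenting cells, had 2311, 699 and 986 with luteolin and 3242, 1292 and 2582 with LPS and luteolin. It was higher with LPS in each replicate and rose by 0.92 (adjusted p = 0.0376), while without luteolin it was lower with LPS in each replicate, at −0.41. The call of Cd83 was lost without replicate 2 of LPS and luteolin (adjusted p = 0.0823) and without the replicate block (adjusted p = 0.681), and 12 of 25 settings called it. Lowered genes of this kind included Klrd1, a lectin-like receptor of lymphocytes, at −2.23 with and −0.27 without luteolin, and Rgs18, a regulator of G protein signalling, at −1.77 and −0.40. Klrd1 was under 50 in all LPS and luteolin arrays, and with signals under 50 set to 50 its difference was −1.03.

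Whether the response itself differed was tested by the interaction, the response with luteolin minus that without. No gene passed (0 of 12071, 0% called), the smallest adjusted p being 0.0927, while 798 genes had an unadjusted p below 0.05 in limma (6.61%). With array weights 9 genes passed. Among the 259 LPS-raised genes the interaction was below 0 for 224 and had a median of −0.76, and among the 134 LPS-lowered genes it was above 0 for 96 with a median of 0.26. The genes of this choice had a large response without luteolin by construction, so these values are a description.

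The smallest unadjusted p-values below 0 belonged to Cfb, Acp5, Gstm6, Il1rn, Gm9706, Gbp6, Slfn4 and Mreg. Acp5, a lysosomal phosphatase, went from 33.9, 42.9 and 52.01 to 301, 296 and 234 without luteolin, and from 45.0, 39.1 and 39.1 to 58.0, 45.5 and 75.9 with it. The interaction was −2.19 ± 0.29 (SE, unadjusted p = 3.19e-05, adjusted p = 0.0927). Mreg, a protein of organelle transport, had 2655, 1622 and 1696 with luteolin and 2389, 1611 and 1586 with LPS and luteolin, a difference of −0.09, against 0.81 without luteolin. Above 0 they belonged to Il6ra, Slc16a3, Ydjc, 1500015A07Rik, Dancr, Luc7l3, Phf10 and Csk.

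**Figure D5:**
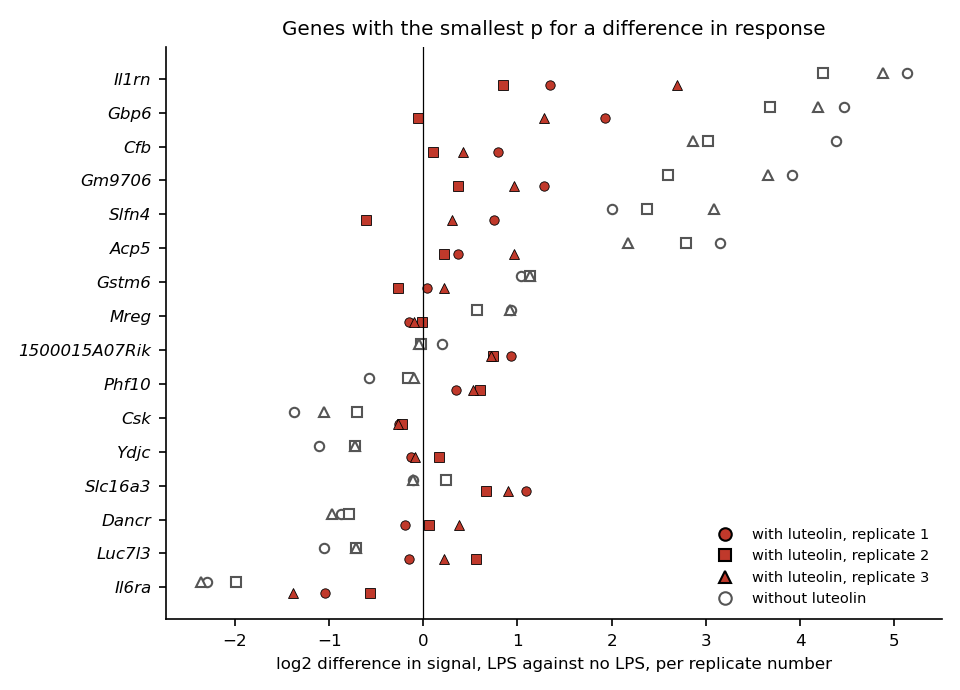
Log2 response to LPS in each replicate for the 16 genes with the smallest unadjusted p of the interaction, 8 in each direction. Filled symbols are with luteolin and open symbols without it. For Cfb the interaction was −2.98 and for Il6ra 1.21, and no gene passed the correction over all genes.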

How the data were processed

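RNA of 12 BV-2 cultures was hybridised to Affymetrix Mouse Genome 430 2.0 arrays. The authors background-corrected, quantile-normalised and summarised the scans by RMA and deposited linear intensity values per probe set, with no replicates pooled. These values were log2 transformed. Of 45101 probe sets, 34958 had 1 gene, 932 several and 9211 none in the annotation used. Each gene was represented by its probe set with the highest mean, and 6123 of 18194 genes with mean signals under 50 in every group were left out. RMA shrinks differences between dim probe sets, and the number of arrays limits the precision.

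limma 3.58.1 in R 4.3.3 was fitted to all 12 arrays with 4 group means and the replicate number as a block, which left 6 residual degrees of freedom. p-values were adjusted by Benjamini-Hochberg. The numbers were kept as a block because they mark the independent stimulations. The deviations of same-numbered arrays correlated in all 18 pairs, between r = 0.101 and 0.591, while unlike numbers had a median of −0.295. Luteolin arrays and their LPS and luteolin partners had r = 0.591, 0.186 and 0.221 in replicates 1, 2 and 3. Luteolin replicate 2 correlated more with LPS and luteolin replicate 3 (r = 0.483) than with its partner, so the pairing was weak there. Python 3.11.15 with numpy 2.4.6, pandas 2.3.3 and matplotlib 3.10.9 was used for summaries and plots, and the fit was tested on simulated data.

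Genes and the 34 gene lists were chosen with earlier results of these data known. Named were the 15 genes per direction that changed most with non-overlapping groups, the 4 members of each list that changed most, the 8 genes with the smallest share kept per direction and the 8 raised ones with the largest, the 6 per direction called only with luteolin, the 8 per direction with the smallest interaction p, and Il6, Cxcl10, Irf7 and Nos2, of which the text describes those it turns on. Nfkbia, Nfkb2, Cflar, Csf3, Il1a, Ccl3, Ccl4, Ccl7, Ccl9, Slfn2, Ifnar2, P2ry12, Tmem119 and Ifitm3 were named from their lists after their values were seen. Alternatives left out the block, arrays or the filter, or changed the scaling, floor, weights, prior or probe set rule.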

Additional observations from a re-analysis of the deposited data

How the results depend on the processing

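None of the medians, and no called gene among the 209 followed one by one, changed direction. Without the replicate block the counts fell from 210 to 97 raised and from 344 to 121 lowered genes, and 67 of 181 LPS-raised and 31 of 82 LPS-lowered genes were called with luteolin. With only the 6 arrays of each comparison they were 105 and 158, with 65 of 229 and 51 of 94. Array weights gave 481 and 611, with 176 of 290 LPS-raised genes. With no minimum fold change 159 of 519 and 221 of 819 LPS-responsive genes were called. The median was then 0.559 for the raised ones, against 1.059 in the main analysis, and −0.385 for the lowered ones. Leaving out arrays or replicate numbers gave 18 to 302 raised and 12 to 580 lowered genes, 16 to 163 LPS-raised and 6 to 92 LPS-lowered genes called with luteolin, and medians of the latter from −1.386 to −0.852. The lowest counts, 18, 12, 16 and 6, came without replicate 3, and the 580 without LPS replicate 1. The median of LPS-raised genes stayed between 0.922 and 1.427 there. Genes whose response differed with luteolin numbered 0 in the main analysis, 2 with signals under 50 set to 50, 9 with array weights and 0 to 3 on leaving out arrays. Genes near a signal of 50 have bounds rather than levels. Of these 209 genes, 99 were called with luteolin. Of these, 17 were called under all 25 alternatives, 46 lost the call without the replicate block, 14 without replicate 2 of LPS and luteolin and 81 without replicate 3. Without replicate 2 of LPS and luteolin 19 of the other 110 gained a call.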

Other observations

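In 227 of the 12071 tested genes the response to LPS had opposite signs with and without luteolin in every replicate. This number was not compared with what unrelated signs would give, so it does not show an excess of such genes. The difference between the states passed the correction for none of these 227 genes. Besides Cd83 and Ms4a6d they included Lmod3, an actin-nucleating protein, at −1.30 with luteolin and 0.50 without. Mmp13, a collagenase, differed by −2.16 with luteolin (adjusted p = 0.195) and by 2.10 without (adjusted p = 0.123), with an interaction of −4.26 (unadjusted p = 0.00427, adjusted p = 0.599). These genes were named after their values were seen.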
